A study of Mus musculus with 12 samples.

Results

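The 10 genes described here, Pecam1, Cdh5, Kdr, Flt1, Tek, Tie1, Eng, Vwf, Emcn and Esam, serve as markers of the cells that line blood vessels. Bulk tumour RNA does not show which cells made the transcripts of these genes. They were taken by symbol from a table of 46078 mouse genes, in which each of the 10 was found and each carried enough counts to be tested, among 18252 tested genes. The RNA came from orthotopic tumours of 4T1, a mouse mammary carcinoma line that bears firefly luciferase in this study, grown in BALB/c mice after 300000 cells had been placed in mammary fat pad number 4. The vehicle group received neither drug. The MBQ-167 group received 100 mg/kg of MBQ-167, named in the series title as an inhibitor of the GTPases Rac and Cdc42, 5 times a week. The paclitaxel group received 5 mg/kg of paclitaxel, a microtubule-stabilising drug, 1 time a week, and the combination group received both drugs on these schedules. Dosing started on day 14, ran for 2 weeks, and the tumours were collected on day 28, with 3 libraries in each of the 4 groups. Genotype was given as wild type, and all groups share the tumour line and the host strain. The libraries are titled as biological replicates, and the labels leave unsaid whether each came from its own mouse, so the p-values measure the spread between libraries. Cells were injected on 2 occasions that are not tied to libraries, and the occasion cannot be told apart from the group.

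Growing tumours draw vessels from the host. Vascular endothelial growth factors bind receptor tyrosine kinases on endothelial cells (Kdr and Flt1) and drive sprouting, while angiopoietins act through Tek and its partner Tie1 to set how stable the new vessels are. Cdh5, Pecam1 and Esam hold neighbouring endothelial cells together, Eng is a coreceptor for the TGF-beta and BMP family, Vwf is stored in endothelial granules and captures platelets, and Emcn coats the luminal surface of capillaries and veins. Rac and Cdc42 act on endothelial junctions, migration and lumen formation, and microtubules are needed for sprouting.

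Promoter sequences are shown for 3 receptors: Kdr and Tek, the pair with the highest correlation over the 12 libraries before group means were removed, and Flt1, the other receptor for VEGF-A. RefSeq start sites on GRCm38.p6 matched 6 of the 10 genes (Kdr, Flt1, Tek, Tie1, Eng and Emcn), with a window of up to 250 bases before the start. The sequences run 5′ to 3′ on the strand of the gene. They lie at chr5:75978459-75978705 (minus strand, Kdr), chr4:94739039-94739288 (plus strand, Tek) and chr5:147726012-147726261 (minus strand, Flt1). Capitals mark matches to AGGAAG or CGGAAG on either strand, 2 sequences that contain GGAA, the core that ETS factors bind. Other GGAA matches were not marked or counted.
Kdr: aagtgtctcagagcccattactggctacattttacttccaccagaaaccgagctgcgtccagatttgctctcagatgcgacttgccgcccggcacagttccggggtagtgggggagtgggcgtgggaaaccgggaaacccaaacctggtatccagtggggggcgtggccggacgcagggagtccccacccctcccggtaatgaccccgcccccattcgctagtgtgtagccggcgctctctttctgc
Tek: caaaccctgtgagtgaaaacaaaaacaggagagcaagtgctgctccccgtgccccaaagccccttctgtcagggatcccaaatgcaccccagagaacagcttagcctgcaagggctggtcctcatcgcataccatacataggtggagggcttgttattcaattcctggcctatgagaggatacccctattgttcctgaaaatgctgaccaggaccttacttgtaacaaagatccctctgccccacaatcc
Flt1: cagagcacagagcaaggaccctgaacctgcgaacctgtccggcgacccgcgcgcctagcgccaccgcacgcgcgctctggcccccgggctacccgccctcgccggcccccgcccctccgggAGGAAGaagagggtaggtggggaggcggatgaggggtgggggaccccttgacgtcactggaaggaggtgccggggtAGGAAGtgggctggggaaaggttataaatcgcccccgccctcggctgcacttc
The Kdr and Tek windows held 0 matches to these 2 sequences, which does not mean that they lack GGAA. The Flt1 window held 2, at 129 and 53 bases before the start (-129 and -53). Tie1, Eng and Emcn also held 2 each, those of Tie1 in the 38 bases of its window that lie before its first annotated exon. Among 32851 promoter windows of 250 bases, 39.2% held AGGAAG or CGGAAG. Neither the GATA site AGATAA, present in 9.99% of the windows, nor the AP-1 site TGANTCA, present in 6.75%, was found in any of the 6, both strands being searched. These matches describe letters within the windows and nothing more.

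Total counts ran from 11540557 to 17001562 per library, and single members had between 35 and 2114 counts. Features that resemble ribosomal RNA (3 in all) took 17.1% to 37.5% of each total, which lowers the depth left for other genes. All 7 epithelial markers expected of carcinoma cells averaged at least 1 CPM (counts scaled to a fixed total and corrected for library composition), with a summed level of 925 to 2822 CPM. Neutrophil and erythroid markers differed most between the groups among the marker lists: erythroid markers summed to 258 to 265 CPM in vehicle and to 14.5 to 108 CPM in the 9 drug libraries. Neutrophil markers summed to 641, 491 and 1912 CPM in vehicle libraries 1 to 3 and to 313 to 497 CPM in the drug libraries. Vehicle library 3 thus stood apart, and vehicle library 2 lay below MBQ-167 library 3, at 497 CPM.

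**Figure D1:**
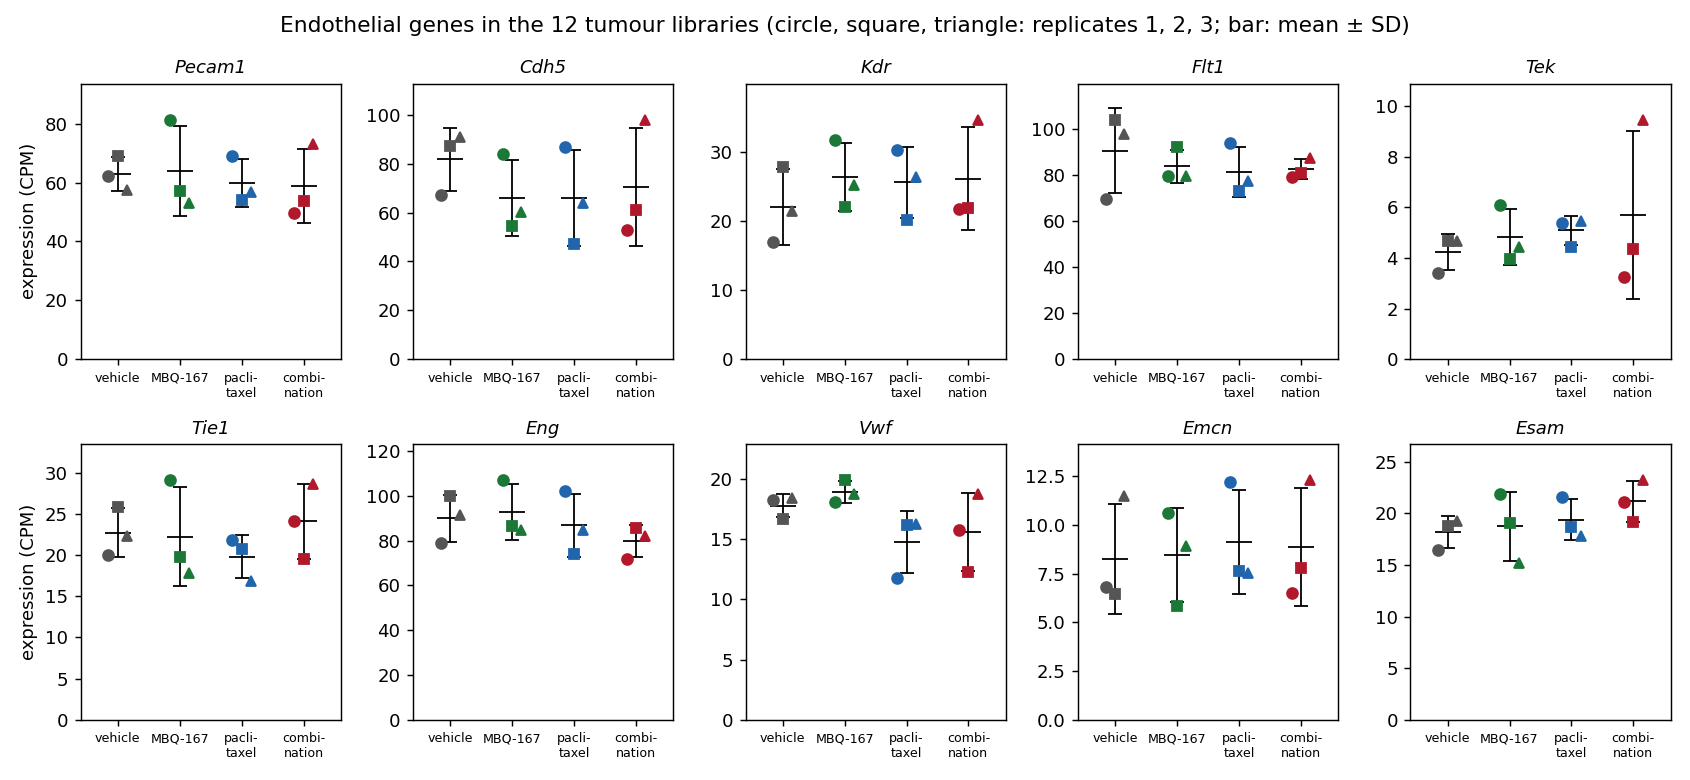
Expression of the 10 endothelial genes in CPM (vertical axes, from 0) in the 3 libraries of each group (horizontal axes), with black bars for the group mean ± SD. In the comparisons with vehicle the libraries overlap except for Vwf under paclitaxel, where 3 libraries (11.8 to 16.3 CPM) lie below the 3 vehicle libraries (16.7 to 18.4 CPM).

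None of the 10 endothelial genes passed the test in any comparison between groups. The ratio of the highest to the lowest group mean ran from 1.09 for Pecam1 to 1.34 for Tek. Within a single group, the ratio of the highest to the lowest library reached 1.38 for Eng to 2.92 for Tek. Single libraries spread more widely than means of 3 by construction, so these ratios are descriptions and no test. In bulk tumour RNA, fewer endothelial cells and less RNA per endothelial cell cannot be told apart.

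Among the VEGF receptors, Kdr (chr5:75932827-75978458 on GRCm38, minus strand), the main signalling receptor for VEGF-A, was at 16.9, 27.8 and 21.5 CPM in vehicle libraries 1 to 3. It was at 31.8, 22.1 and 25.2 CPM under MBQ-167, at 30.3, 20.1 and 26.4 CPM under paclitaxel, and at 21.8, 21.9 and 34.7 CPM in the combination. Combination library 3 was the highest and vehicle library 1 the lowest, and all groups overlapped. The log2 fold changes against vehicle were 0.26 ± 0.23 (SE; 95% interval -0.24 to 0.75), 0.22 ± 0.23 (-0.27 to 0.71) and 0.25 ± 0.23 (-0.24 to 0.74) for MBQ-167, paclitaxel and the combination. With edgeR's quasi-likelihood test and Benjamini-Hochberg adjustment, the adjusted p-values were 0.690, 0.626 and 0.619.

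Flt1 (chr5:147561604-147726011, minus strand) encodes a receptor with high affinity and weak kinase activity that can hold VEGF-A away from Kdr. Its level was 69.6, 104 and 97.8 CPM in vehicle, 79.6, 91.9 and 79.7 CPM under MBQ-167, 93.7, 72.8 and 77.4 CPM under paclitaxel, and 79.1, 81.0 and 87.3 CPM in the combination. The vehicle libraries held both the lowest and the highest value. The log2 fold changes were -0.11 ± 0.15, -0.15 ± 0.15 and -0.13 ± 0.15, with intervals that lay between -0.47 and 0.20. The count ratio of Flt1 to Kdr, 2 genes of unequal length, was 4.13 ± 0.395 (SD, n = 3) in vehicle, 3.28 ± 0.833 under MBQ-167, 3.22 ± 0.364 under paclitaxel and 3.28 ± 0.659 in the combination. The vehicle libraries (3.75 to 4.54) overlapped the MBQ-167 libraries (2.5 to 4.16) but lay above the paclitaxel libraries (2.93 to 3.63) and the combination libraries (2.52 to 3.69). This ratio is given as a description, and no test was made of it.

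Of the angiopoietin receptor pair, Tek (Tie2; chr4:94739289-94874976, plus strand) had the lowest counts of the 10 genes and the widest spread. It measured 3.40, 4.66 and 4.66 CPM in vehicle, 6.09, 3.97 and 4.44 CPM under MBQ-167, 5.40, 4.42 and 5.46 CPM under paclitaxel, and 3.25, 4.34 and 9.48 CPM in the combination. The combination held both the lowest and the highest library. Its difference from vehicle in the combination was 0.44 ± 0.34 on the log2 scale, a 1.36-fold difference with an interval from 0.818-fold to 2.26-fold, and the adjusted p was 0.537 by edgeR's quasi-likelihood test. Without combination library 3, the same difference was -0.16 ± 0.29.

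Tie1 (chr4:118471191-118490061, minus strand), which binds no known ligand with high affinity and modulates Tek, was at 20.0, 25.9 and 22.3 CPM in vehicle. It was at 29.1, 19.8 and 17.8 CPM under MBQ-167, 21.9, 20.7 and 16.9 CPM under paclitaxel, and 24.2, 19.5 and 28.6 CPM in the combination. All groups overlapped, and the log2 fold changes were -0.03 ± 0.20, -0.19 ± 0.20 and 0.09 ± 0.20. The count ratio of Tie1 to Tek was 5.40 ± 0.566 (SD, n = 3) in vehicle and 4.59 ± 0.518, 3.95 ± 0.795 and 4.98 ± 2.25 under MBQ-167, paclitaxel and the combination. In the combination it spanned 3.01 to 7.43, so that the single-drug groups and vehicle lay within its range. The vehicle libraries (4.78 to 5.89) lay above the paclitaxel libraries (3.1 to 4.68) and overlapped the MBQ-167 libraries (4 to 4.98). No test was made of this ratio.

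Eng (endoglin; chr2:32646595-32682669, plus strand) was at 78.8, 99.8 and 91.3 CPM in vehicle, 107, 86.7 and 84.8 CPM under MBQ-167, 102, 73.9 and 84.9 CPM under paclitaxel, and 71.7, 85.7 and 82.1 CPM in the combination. All groups overlapped. With log2 fold changes of 0.05 ± 0.14, -0.05 ± 0.14 and -0.17 ± 0.14, Eng had the smallest SE among the 10 genes, and its intervals lay between -0.48 and 0.35. Eng shares 61 exon bases with Fpgs on the opposite strand, and without a stated strand setting the reads of those bases cannot be assigned to one gene.

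The junction genes gave similar results. Cdh5 (VE-cadherin, the core of the endothelial adherens junction; chr8:104101625-104144511, plus strand) was at 67.2, 87.1 and 91.0 CPM in vehicle, 83.8, 54.4 and 60.1 CPM under MBQ-167, 86.7, 47.2 and 64.1 CPM under paclitaxel, and 52.7, 61.0 and 98.1 CPM in the combination. One library in each drug group reached or exceeded the vehicle range, while the other two lay below it. The log2 fold changes were -0.31 ± 0.25 (95% interval -0.84 to 0.23), -0.31 ± 0.25 (-0.84 to 0.23) and -0.21 ± 0.25 (-0.74 to 0.33), with adjusted p-values of 0.650, 0.505 and 0.715 by edgeR's quasi-likelihood test. Without MBQ-167 library 1 the difference of the MBQ-167 group was -0.52 ± 0.27, and without combination library 3 that of the combination was -0.53 ± 0.24, and neither passed.

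Pecam1 (CD31, a junctional adhesion molecule also carried by platelets and some leukocytes; chr11:106654217-106750628, minus strand) was at 62.4, 69.1 and 57.4 CPM in vehicle and at 81.5, 57.3 and 53.0 CPM under MBQ-167. Under paclitaxel it was at 69.2, 54.0 and 56.7 CPM, and in the combination at 49.7, 53.7 and 73.2 CPM. Its log2 fold changes of 0.02 ± 0.18, -0.07 ± 0.18 and -0.09 ± 0.18 had intervals between -0.48 and 0.41. Esam (chr9:37528078-37538319, plus strand), an adhesion molecule of endothelial tight junctions and platelets, was at 16.4, 18.8 and 19.3 CPM in vehicle, 21.9, 19.1 and 15.2 CPM under MBQ-167, 21.6, 18.7 and 17.8 CPM under paclitaxel, and 21.1, 19.2 and 23.2 CPM in the combination. Esam was highest on average in the combination, where 2 libraries lay above the vehicle range, and its log2 fold change there was 0.22 ± 0.16 (95% interval -0.12 to 0.56, adjusted p = 0.494).

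Emcn (endomucin; chr3:137341067-137432185, plus strand) was at 6.80, 6.48 and 11.5 CPM in vehicle, 10.6, 5.85 and 8.95 CPM under MBQ-167, 12.2, 7.66 and 7.55 CPM under paclitaxel, and 6.51, 7.81 and 12.3 CPM in the combination. Each group held 1 library above 10 CPM, and the log2 fold changes of 0.03 ± 0.31, 0.14 ± 0.31 and 0.11 ± 0.31 had wide intervals, from -0.64 to 0.81.

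Vwf (von Willebrand factor; chr6:125546774-125686679, plus strand) was the exception in its pattern over libraries. It was at 18.3, 16.7 and 18.4 CPM in vehicle, 18.1, 19.9 and 18.8 CPM under MBQ-167, 11.8, 16.2 and 16.3 CPM under paclitaxel, and 15.8, 12.3 and 18.8 CPM in the combination. The 3 paclitaxel libraries lay below all vehicle and all MBQ-167 libraries, while the combination overlapped both. The log2 difference of paclitaxel from vehicle was -0.27 ± 0.17 (95% interval -0.65 to 0.10, adjusted p = 0.375), and that from MBQ-167 was -0.36 ± 0.17 (-0.73 to 0.01, adjusted p = 0.727, edgeR's quasi-likelihood test). Over the 6 libraries with paclitaxel against the 6 without, the difference was -0.28 ± 0.12 (-0.54 to -0.01). Its unadjusted p of 0.0411 was the only one under 0.05 among the 90 tests of the 10 genes by edgeR, and the adjusted p was 0.234. In that comparison 19.4% of all genes had an unadjusted p under 0.05, so 1 of 10 is no more than the background. Platelet and megakaryocyte markers, the other cells known to hold Vwf, were low: 7 of 10 averaged under 1 CPM, and their summed level was 13.4 to 30.8 CPM in vehicle, 16.3 to 24.9 CPM under MBQ-167, 12.9 to 17.3 CPM under paclitaxel and 15.1 to 21.6 CPM in the combination. Whether platelet RNA had a part in the Vwf values was not tested.

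Read as a group, 0 of the 10 genes passed in MBQ-167 against vehicle, where 0.0931% of all tested genes passed at an adjusted p under 0.05. The count was also 0 in paclitaxel against vehicle, where 5.66% of all genes passed, and 0 in the combination against vehicle, where 1.84% passed. No unadjusted p of the 30 was under 0.05 by edgeR, a level that 12.9%, 22.6% and 18.4% of all genes reached under MBQ-167, paclitaxel and the combination, and 0 of the 10 genes passed with DESeq2 or limma voom in place of it. The 30 log2 fold changes ran from -0.31 to 0.44, with medians of 0.04, -0.06 and 0.00 for MBQ-167, paclitaxel and the combination, beside a median of 0.00 over all genes in each. Their 95% intervals ran from -0.84 to 1.17, and 28 of the 30 lay within 1 log2 unit of 0, the other two being those of Tek under paclitaxel and in the combination. Changes larger than 2-fold thus fell outside the intervals of the other 9 genes, while some smaller changes did not, and a p that misses the threshold does not show that levels were equal. Vwf was the only one of the 10 whose paclitaxel libraries all lay below the vehicle libraries, as did those of 12.1% of all genes, and none lay above. For 0 members did the libraries separate in MBQ-167 against vehicle (17.3% of all genes) or in the combination against vehicle (20.9%).

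**Figure D2:**
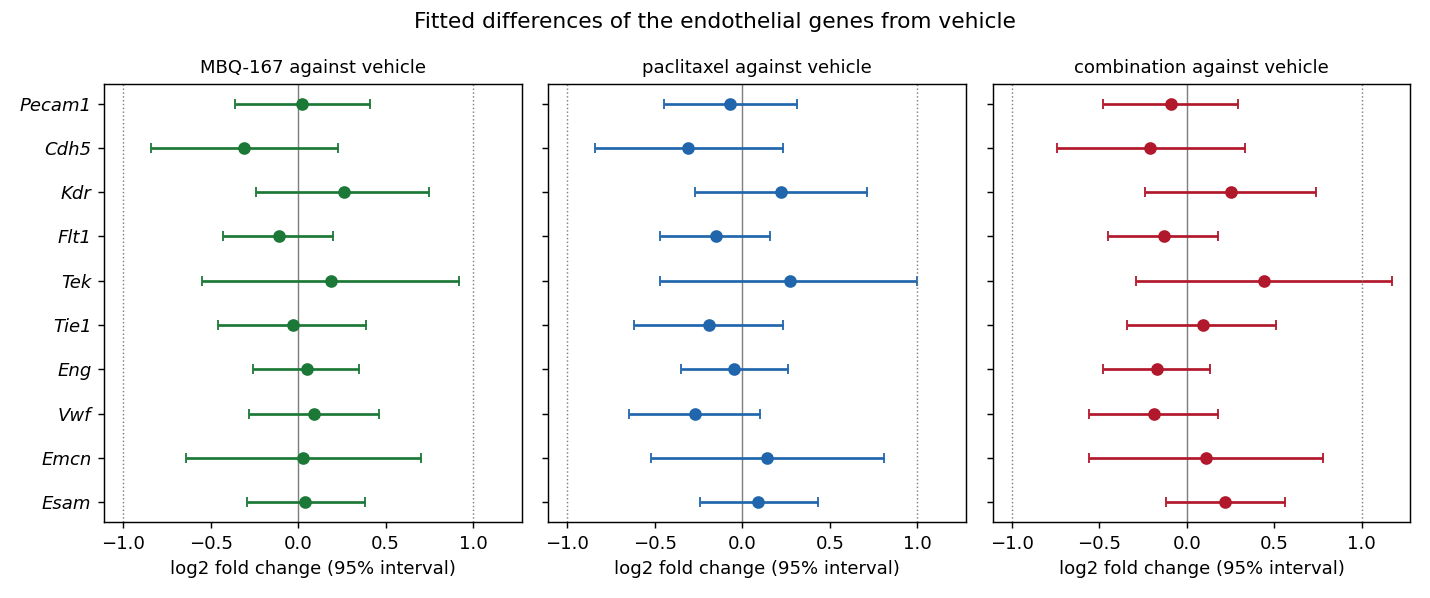
Log2 fold change of each endothelial gene against vehicle (horizontal axes; points) with its 95% interval (bars) in the MBQ-167, paclitaxel and combination groups, 3 libraries each. Every interval spans 0, the dotted lines mark 1 log2 unit, and the bar of Tek in the combination reaches 1.17.

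Adding one drug to the other gave no call for these genes either. In the combination against MBQ-167 the log2 differences ran from -0.28 for Vwf to 0.26 for Tek, and 0 of 10 passed, as for 0% of all genes. In the combination against paclitaxel they ran from -0.12 for Eng to 0.28 for Tie1, again with 0 passing beside 0% of all genes. Paclitaxel against MBQ-167 gave -0.36 for Vwf to 0.12 for Emcn with 0 passing beside 0% of all genes, and the separation seen for Vwf in that comparison, paclitaxel below MBQ-167, was found for 6.71% of all genes. The interaction, which is 0 where both drugs add on the log2 scale, was 0.40 ± 0.35 for Cdh5 (95% interval -0.35 to 1.16) and -0.22 ± 0.32 for Kdr, its extremes. In it, 0 members passed beside 0.0603% of all genes. The main effects over 6 against 6 libraries called 0 members for paclitaxel (3.19% of all genes) and 0 for MBQ-167 (0% of all genes). By edgeR 0 of the 10 had an unadjusted p under 0.05 in the combination against MBQ-167 (5.15% of all genes), the combination against paclitaxel (2.36%), paclitaxel against MBQ-167 (6.88%), the interaction (9.83%) and the MBQ-167 main effect (5.31%). In the paclitaxel main effect 1 did, Vwf, beside 19.4% of all genes. DESeq2 and limma voom called 0 members as well.

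Compared per length, as CPM per kilobase of exon, the mean levels over the 12 libraries were 21.6 for Eng, 16.9 for Cdh5, 9.86 for Pecam1, 6.75 for Esam and 6.26 for Flt1. Below these came Tie1 at 4.52, Kdr at 2.77, Emcn at 1.61, Tek at 1.05 and Vwf at 1.04. Exon length here was that of all annotated exons of a gene, merged over its transcripts, and single transcripts can be shorter. It was 13504 bases for Flt1, 16064 for Vwf and 6228 for Pecam1. Before this division Flt1 averaged 84.5 CPM and Pecam1 61.4 CPM. The divisor is the same in every library, and the order depends on it. Cdh5 exceeded Pecam1, Pecam1 exceeded Esam, Tie1 exceeded Kdr, Kdr exceeded Emcn and Emcn exceeded Tek in 12 of 12 libraries. Esam exceeded Flt1 in 8 of 12 and Tek exceeded Vwf in 5 of 12, and these neighbours changed places between groups. In vehicle Flt1 stood above Esam, and in the drug groups below it, while Tek stood below Vwf in vehicle and MBQ-167 and above it in both groups with paclitaxel. The ranges of all neighbouring genes over the 12 libraries overlapped.

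The libraries of a group differed among themselves. The 10 genes summed to 360, 461 and 435 CPM in vehicle libraries 1 to 3, to 470, 381 and 368 CPM under MBQ-167, to 455, 336 and 374 CPM under paclitaxel, and to 346, 366 and 468 CPM in the combination. The group means were 419 ± 52.4 CPM (SD, n = 3), 406 ± 55.5, 388 ± 60.8 and 393 ± 65.4, and each group held libraries with high and low totals. Combination library 3 had the highest value of the 12 libraries for 5 genes and was among the 3 highest for 8, while MBQ-167 library 1 was highest for 3 and among the 3 highest for 6. Paclitaxel library 1 was among the 3 highest for 6 genes, and combination library 1 was the lowest for 3. Without combination library 3, 9 of the 10 log2 fold changes of the combination against vehicle were negative (median -0.20), where all 3 libraries together gave 5 negative and 5 positive. Without MBQ-167 library 1, 8 of 10 were negative in MBQ-167 against vehicle (median -0.08), where 3 had been. Without paclitaxel library 1, 7 of 10 were negative in paclitaxel against vehicle (median -0.16), where 6 had been. These 3 libraries had the highest summed level of their groups, so leaving them out lowers the differences by construction. Over each library left out in turn, vehicle libraries included, the median of the 10 genes ran from -0.08 to 0.11 for MBQ-167, from -0.16 to 0.03 for paclitaxel and from -0.20 to 0.09 for the combination, and no gene passed in any of these fits.

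**Figure D3:**
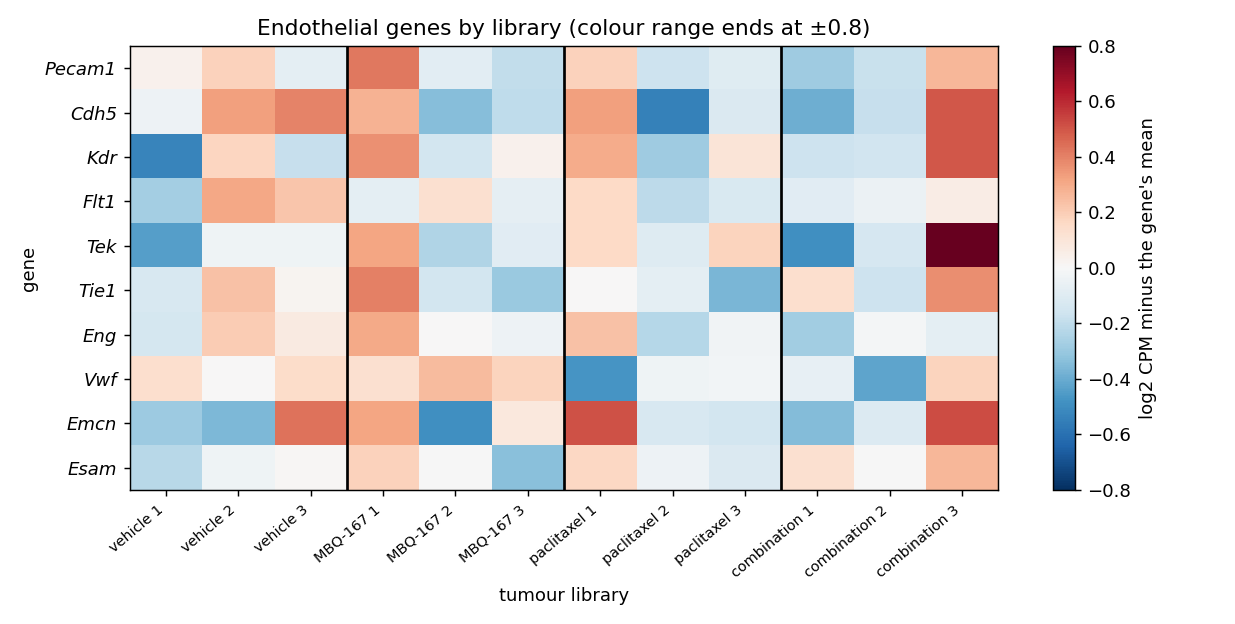
Log2 CPM of each endothelial gene (rows) in each tumour library (columns) minus the mean of that gene over the 12 libraries, as colour from -0.8 to 0.8, with vertical lines between the groups. Combination library 3 and MBQ-167 library 1 are red for most genes, and the row of Vwf does not follow the others.

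Most of the 10 genes were high and low in the same libraries. Across the 12 libraries, which are not independent of the group and share the scaling of each library, Pearson's r of log2 CPM had a median of 0.48 over the 45 pairs (-0.24 to 0.84), and 22 pairs exceeded 0.5. With group means removed the median was 0.57. Before group means were removed Kdr and Tek had the highest r, 0.84, Pecam1 and Cdh5 had 0.78, and Tie1 and Esam had 0.76. With group means removed Cdh5 and Kdr led at 0.91, Cdh5 and Tek and also Tie1 and Esam had 0.87, and Kdr and Tek had 0.84. The promoter windows of Kdr and Tek printed above both lack the 3 motifs searched, as most windows of all genes lack each of them. Kdr and Flt1, the VEGF receptors, had an r of 0.43. For Vwf the 9 pairs ran from -0.24 to 0.13, whereas the 36 pairs without Vwf had a median of 0.56 and a minimum of 0.22. Without combination library 3 and MBQ-167 library 1 the median over all pairs was 0.36, and 14 pairs exceeded 0.5.

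Genes outside the 10 that followed their mean were sought among the 15858 genes that averaged 1 CPM or more. The 8 with the highest r over the 12 libraries were Igfbp3 (0.95), Dysf (0.91), Prss23 (0.90), Adgrf5 (0.89), Gm16001 (0.89), Ptprm (0.88), Afap1l1 (0.87) and Chst1 (0.87). Igfbp3 encodes a secreted carrier of insulin-like growth factors, Ptprm a receptor phosphatase of cell contacts, and Adgrf5 an adhesion receptor known from lung epithelium and endothelium. Of 31 other genes enriched in endothelium 16 had an r over 0.5, as had 7 of 14 pericyte and smooth muscle markers and 6 of 9 vascular basement membrane genes, beside 4.08% of all genes. Lama4 (0.86), Nos3 (0.86), Mmrn2 (0.85), Pdgfrb (0.82) and Erg (0.79) were among them, listed here after their values were seen. The medians were 0.72 for basement membrane, 0.53 for pericyte and smooth muscle, 0.50 for other endothelial, 0.18 for fibroblast, 0.07 for neutrophil and 0.00 for macrophage genes, with -0.01 over all genes. Other vessel lists were lower: 0.46 for coreceptors, 0.37 for lymphatic, 0.31 for arterial and Notch, 0.25 for ligand and -0.24 for leukocyte adhesion genes. In these lists 6 of 14, 1 of 3, 2 of 12, 2 of 10 and 0 of 3 had an r over 0.5. Further medians were 0.37 for platelet, 0.28 for erythroid, 0.14 for epithelial, 0.10 for skeletal muscle and 0.01 for both T and NK cell and adipocyte genes. Pericyte and smooth muscle markers summed to 494 CPM in combination library 3 and to 279 and 271 CPM in the other two combination libraries. Combination library 3 also stood high in lists of other cell types: on the mean log2 CPM of a list, each gene centred on its own mean, it was at 0.98 for lymphatic and 0.64 for fibroblast markers, the highest of the 12 libraries, and at 1.14 for adipocyte and 0.78 for epithelial markers, the second highest. The same library was below 0 for erythroid (-0.81), neutrophil (-0.78), macrophage (-0.44) and platelet (-0.16) markers. For skeletal muscle and for T and NK cell markers it was at 0.18 and 0.16. The part of these cells in the endothelial values was not tested.

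**Figure D4:**
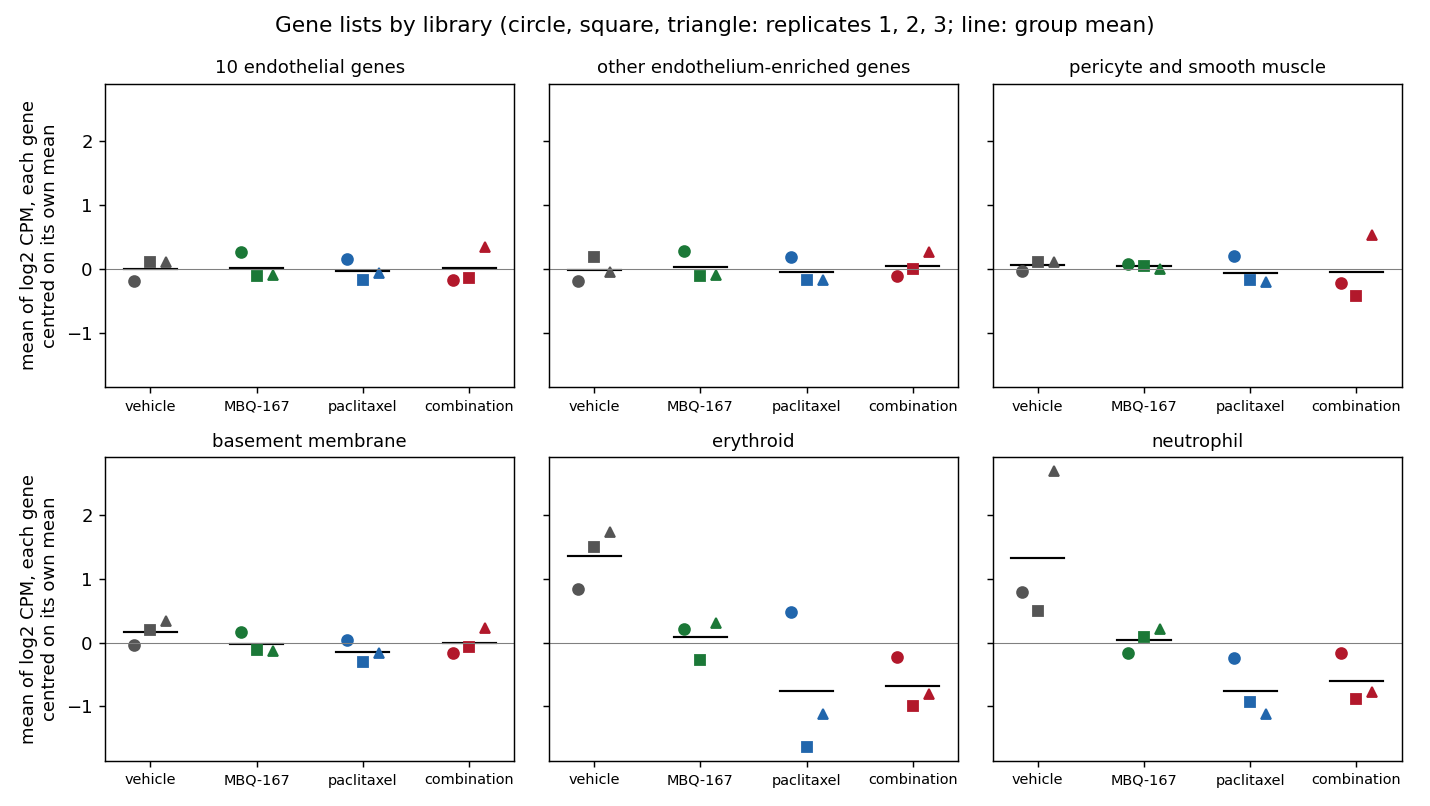
Mean log2 CPM of the genes of a list, each centred on its own mean (vertical axes), in the 3 libraries of each group (circle, square and triangle for replicates 1 to 3, line for the group mean). The 10 endothelial genes lie between -0.19 and 0.35 in all libraries, while the erythroid and neutrophil lists are higher in every vehicle library than in any drug library.

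The genes around these receptors were read from lists of their ligands, coreceptors and partners. Of the VEGF, angiopoietin and related ligands, 10 of 13 were tested. By edgeR 1 fell in paclitaxel against vehicle, where 5.66% of all genes passed. In MBQ-167 and in the combination against vehicle 0 passed by edgeR, with 1 at an unadjusted p under 0.05 in each (12.9% and 18.4% of all genes). Under paclitaxel 3 of 10 had such a p (22.6% of all genes). The gene that passed was Pgf, placental growth factor, a ligand of Flt1. It was at 18.7, 21.7 and 23.9 CPM in vehicle, 13.4, 12.9 and 10.5 CPM under MBQ-167, 13.4, 8.77 and 7.42 CPM under paclitaxel, and 16.6, 12 and 13.3 CPM in the combination. All 9 drug libraries lay below the 3 vehicle libraries. Of all genes, 17.3% under MBQ-167 and 20.9% in the combination had libraries apart from vehicle in either direction, and 12.1% lay lower under paclitaxel. The log2 fold change was -1.11 ± 0.21 under paclitaxel (adjusted p = 0.0118), -0.81 ± 0.21 under MBQ-167 (adjusted p = 0.151) and -0.62 ± 0.21 in the combination (adjusted p = 0.138). Paclitaxel against MBQ-167 was -0.30 ± 0.22 for Pgf (adjusted p = 0.837), and its interaction was 1.30 ± 0.30 (adjusted p = 0.171), which passed with DESeq2 (adjusted p = 0.0134) and without a filter on low counts (0.0121). The call was lost without paclitaxel library 2 (-1.03, adjusted p = 0.0576) and in a fit of those 2 groups only (adjusted p = 0.0584), while DESeq2 (adjusted p = 0.0300) and the fit without a filter on low counts (0.0259) also called Pgf in MBQ-167 against vehicle. DESeq2 called Apln, the ligand of the apelin receptor, as a second ligand under paclitaxel, where edgeR gave -0.52 ± 0.17 (adjusted p = 0.0816).

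Vegfa, the ligand of Kdr and Flt1, was at 67.9, 150 and 75.8 CPM in vehicle, 77.7, 104 and 65.9 CPM under MBQ-167, 117, 78.6 and 83.1 CPM under paclitaxel, and 72.0, 88.2 and 79.8 CPM in the combination. Vehicle library 2 was the highest, and the log2 fold changes of -0.25, -0.07 and -0.29 (each ± 0.26) did not pass. Angpt1, the activating ligand of Tek, ranged from 4.8 to 41.4 CPM within the combination alone, and its log2 fold changes of -0.12, 0.08 and 0.04 had SEs of 0.68 to 0.69. Angpt2, which is made by endothelial cells and can oppose Angpt1, was at 14.9 to 22.5 CPM in vehicle and 14.5 to 26.2 CPM in the drug libraries, with log2 fold changes of 0.24, -0.03 and 0.24 (each ± 0.23). The r of Angpt2 with the mean of the 10 endothelial genes was 0.73, and that of Vegfa was 0.28.

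None of the 14 coreceptors and other receptors passed against vehicle in any drug group by edgeR, DESeq2 or limma voom, and 1, 2 and 0 had an unadjusted p under 0.05 under MBQ-167, paclitaxel and the combination. The shares of all genes at that level by edgeR were 12.9%, 22.6% and 18.4%. Nrp1, which binds VEGF-A beside Kdr, was at 59.4 to 120 CPM in vehicle, and its log2 fold changes were 0.23, 0.10 and 0.03 (each ± 0.25). Nrp2, a coreceptor for VEGF-C and semaphorins, was lower than vehicle in every library of every drug group (314 to 371 CPM against 224 to 313 CPM), with log2 fold changes of -0.35 ± 0.13 under MBQ-167 (adjusted p = 0.270), -0.29 ± 0.13 under paclitaxel and -0.28 ± 0.13 in the combination. The nearest vehicle and drug libraries were at 314 and 313 CPM. Libraries apart from vehicle in either direction were found for 17.3% of all genes under MBQ-167 and 20.9% in the combination. Under paclitaxel 12.1% lay lower. Bmpr2, a BMP receptor that signals with Eng, was at 0.33 ± 0.13 under paclitaxel (adjusted p = 0.144). Flt4, the receptor for VEGF-C, was at 5.59 to 9.79 CPM in vehicle and gave log2 fold changes of 0.34, 0.34 and 0.55 (each ± 0.32).

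Other genes enriched in vascular endothelium also gave 0 passing of 32 tested in each drug group by edgeR and limma voom, with 1, 1 and 0 at an unadjusted p under 0.05 and median log2 fold changes of 0.05, -0.05 and 0.06. Of all genes 12.9%, 22.6% and 18.4% had such an unadjusted p by edgeR. Cldn5, a tight junction claudin, was at 20.9, 25.5 and 18.0 CPM in vehicle and 13.3 to 26.6 CPM in the drug libraries. Sox18, a transcription factor of vessel development, was at 7.94, 8.70 and 7.97 CPM in vehicle and at 17.3, 9.17 and 11 CPM under MBQ-167, a log2 difference of 0.61 ± 0.25 (adjusted p = 0.336). Tspan7, a tetraspanin, gave -0.75 ± 0.24 under paclitaxel (adjusted p = 0.0772), which passed with DESeq2 (adjusted p = 0.0413) and after a correction for GC content (adjusted p = 0.0399).

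Among arterial and Notch genes, 12 were tested and 1 fell under paclitaxel by edgeR, where 5.66% of all genes passed. It was Ephb4, the venous receptor for the arterial ligand ephrin-B2. In the same comparison 3 of the 12 had an unadjusted p under 0.05, beside 22.6% of all genes. Ephb4 was at 203, 157 and 240 CPM in vehicle, 159, 161 and 161 CPM under MBQ-167, 127, 139 and 148 CPM under paclitaxel, and 177, 143 and 146 CPM in the combination. The paclitaxel libraries lay below all vehicle libraries, as did those of 12.1% of all genes. The log2 fold change was -0.54 ± 0.14, with an adjusted p of 0.0426 by edgeR's quasi-likelihood test. This call held in 1 of 6 fits that left out a library of the groups compared (that without vehicle library 2), and after the correction for GC content it was -0.40 (adjusted p = 0.159). It passed in 8 of 16 alternatives. The same gene gave -0.32 ± 0.14 under MBQ-167 (adjusted p = 0.364) and -0.37 ± 0.14 in the combination (adjusted p = 0.192). No gene of the list passed in those 2 comparisons by edgeR, DESeq2 or limma voom, and 2 in each had an unadjusted p under 0.05, beside 12.9% and 18.4% of all genes. DESeq2 also called Hey1, a transcriptional target of Notch, as higher under paclitaxel, at 2.05 to 2.65 CPM beside 0.68 to 1.01 CPM in vehicle, where edgeR gave 1.54 ± 0.46 (adjusted p = 0.0672); it was named after its values were seen, as were Apln and Lamb1.

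The vascular basement membrane list had 1 of 9 genes lower under paclitaxel by edgeR, where 5.66% of all genes passed. It was Lamc1, the laminin gamma-1 chain. Lamc1 was at 567, 568 and 575 CPM in vehicle, 505, 467 and 503 CPM under MBQ-167, 436, 389 and 442 CPM under paclitaxel, and 485, 529 and 495 CPM in the combination. Every drug library was below every vehicle library. Libraries of all genes were apart from vehicle in either direction for 17.3% under MBQ-167 and 20.9% in the combination, and lower under paclitaxel for 12.1%. Its log2 fold change under paclitaxel was -0.43 ± 0.10 (adjusted p = 0.0263), and those of the other two groups were -0.21 ± 0.10 (adjusted p = 0.399) and -0.18 ± 0.10 (adjusted p = 0.373). The call was lost without vehicle library 1 (-0.44, adjusted p = 0.0648), without paclitaxel library 1 (-0.46, 0.0667) or 2 (-0.38, 0.112), and after the correction for GC content (-0.35, 0.103). It held in 9 of 16 alternatives, over which the log2 fold change ran from -0.47 to -0.35. DESeq2 called Lamb1, the laminin beta-1 chain, as well, where edgeR gave -0.30 ± 0.11 (adjusted p = 0.122). All 9 genes of the list had negative log2 fold changes under MBQ-167 and under paclitaxel (medians -0.20 and -0.30, beside 0.00 over all genes), and 7 of 9 in the combination. These genes share libraries, so the common sign is a description. On the centred mean log2 CPM of the list, vehicle library 1 (-0.04) lay below MBQ-167 library 1 (0.17) and paclitaxel library 1 (0.04). Combination library 3 was at 0.23, and vehicle libraries 2 and 3 at 0.19 and 0.34. An unadjusted p under 0.05 by edgeR was found for 0, 4 and 1 of 9 under MBQ-167, paclitaxel and the combination. Of all genes 12.9%, 22.6% and 18.4% had one. Fibroblasts and carcinoma cells also make these genes, and the origin of the RNA was not tested.

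For 3 further lists no gene passed against vehicle by edgeR, DESeq2 or limma voom. An unadjusted p under 0.05 was found for 1 leukocyte adhesion gene in each comparison, for 1 pericyte and smooth muscle marker under paclitaxel and for 0 lymphatic markers. By edgeR 12.9%, 22.6% and 18.4% of all genes had one under MBQ-167, paclitaxel and the combination. Leukocyte adhesion genes of activated endothelium had 5 of 6 tested, with Sele under 1 CPM on average and Vcam1 at 79.0 to 182 CPM in vehicle and 80.9 to 131 CPM in the drug libraries. In paclitaxel against vehicle Sele, E-selectin, gave 2.10 ± 0.75 on the log2 scale (adjusted p = 0.111) at levels of 0.135 to 0.316 CPM in vehicle and 0.395 to 1.29 CPM under paclitaxel. Pericyte and smooth muscle markers had 14 tested. Des, desmin, gave -1.54 ± 0.59 under paclitaxel (adjusted p = 0.139), with vehicle library 3 at 24.0 CPM beside 5.67 and 6.56 CPM in the others, and passed only where no filter on low counts was used (adjusted p = 0.00386). Skeletal muscle markers summed to 37.9 CPM in vehicle library 3 and to 5.06 and 3.56 CPM in vehicle libraries 1 and 2. Whether skeletal muscle RNA had a part in the Des values was not tested. Myh11, smooth muscle myosin, gave 0.72 ± 0.40 under MBQ-167 (adjusted p = 0.480). Of 7 lymphatic markers, 4 averaged under 1 CPM (Prox1, Reln, Mmrn1 and Ccl21a, the last at 0 counts in all libraries), and Reln gave -1.47 ± 0.88 in the combination (adjusted p = 0.401).

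**Figure D5:**
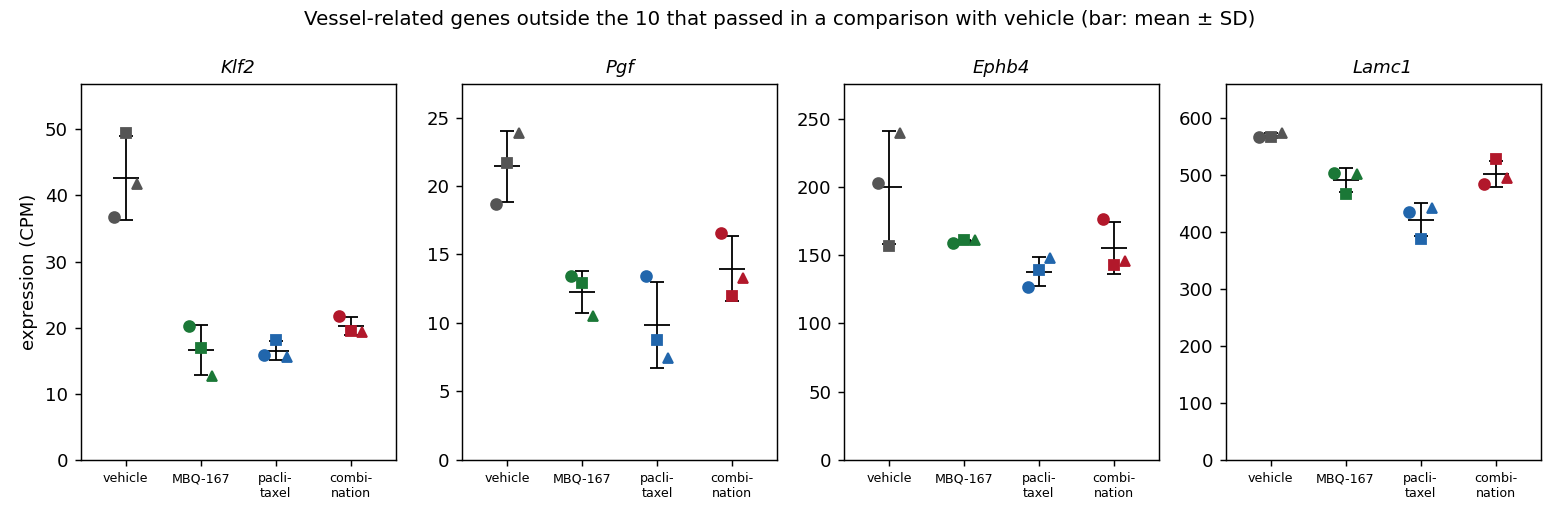
CPM (vertical axes, from 0) of 4 vessel-related genes outside the 10 in the 3 libraries of each group, with bars for the mean ± SD. For Klf2, Pgf and Lamc1 all 9 drug libraries lie below the 3 vehicle libraries, and for Ephb4 the vehicle libraries (157 to 240 CPM) overlap the MBQ-167 and combination groups.

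Klf2 and Klf4, transcription factors that blood flow induces in endothelium and that many other cell types also express, differed from the endothelial genes. Klf2 was at 36.8, 49.5 and 41.7 CPM in vehicle, 20.2, 16.9 and 12.7 CPM under MBQ-167, 15.8, 18.2 and 15.6 CPM under paclitaxel, and 21.8, 19.5 and 19.4 CPM in the combination. No drug library reached the vehicle range. Libraries of all genes were apart from vehicle in either direction for 17.3% under MBQ-167 and 20.9% in the combination, and lower under paclitaxel for 12.1%. Klf2 fell by 1.36 on the log2 scale under MBQ-167 (SE 0.17, adjusted p = 0.00475), by 1.37 under paclitaxel (SE 0.17, adjusted p = 0.00198) and by 1.08 in the combination (SE 0.17, adjusted p = 0.0136). Its interaction was 1.65 ± 0.24 (adjusted p = 0.0286, edgeR's quasi-likelihood test): the combination was less low than the sum of both single-drug differences. This call held in 7 of the 12 fits that each left out 1 library, and was lost without MBQ-167 library 2 or 3, paclitaxel library 1 or 3, or combination library 2 (adjusted p 0.0663 to 0.0985). Between drug groups no Klf2 difference passed. The combination was at 0.28 ± 0.17 against MBQ-167 and 0.29 ± 0.17 against paclitaxel, and paclitaxel at 0.00 ± 0.17 against MBQ-167. In fits of 2 groups only, the calls of MBQ-167 (adjusted p = 0.0804) and the combination (adjusted p = 0.0701) were lost, and the combination call was also lost without combination library 2 (adjusted p = 0.0542).

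Klf4 was at 31.7, 34.5 and 26.2 CPM in vehicle and at 10.5 to 23.6 CPM in the drug libraries, again without overlap, beside the shares of all genes given for Klf2. It fell by 1.24 on the log2 scale under paclitaxel (SE 0.29, adjusted p = 0.0259), and gave -1.05 ± 0.29 under MBQ-167 (adjusted p = 0.159) and -0.94 ± 0.29 in the combination (adjusted p = 0.108). The paclitaxel call held in 2 of 6 fits that left out a library, those without vehicle library 3 and paclitaxel library 1, and was lost after the correction for GC content (-1.14, adjusted p = 0.0558), while DESeq2 also called MBQ-167 (adjusted p = 0.0276) and the combination (adjusted p = 0.0290). Beside these genes, 11 of 14 neutrophil markers and 3 of 6 tested erythroid markers fell under paclitaxel, and 10 of 14 and 3 of 6 in the combination. Of all genes 5.66% and 1.84% passed in these 2 comparisons by edgeR. Under MBQ-167 0 passed by edgeR, while 12 of 14 and 4 of 6 had an unadjusted p under 0.05 (12.9% of all genes), and DESeq2 called 4 and 1. Their part in the Klf2, Klf4 and Pgf results was not tested.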

How the data were processed

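Polyadenylated RNA, per the labels, was sequenced from 12 tumour libraries. The authors deposited raw counts, 1 whole number for each gene and library. Per the submitters' processing notes, HISAT2, HTSeq, DESeq2 and the build GRCm38 were used. Tool versions, the annotation and the strand setting were not given in the sources used here. Symbols, positions and exon lengths came from GENCODE release M21 and matched 45229 of 46078 identifiers, and 15275 genes had no count.

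The 10 genes, the gene lists and the comparisons were chosen with earlier results of these data known. Genes kept by filterByExpr of edgeR 4.0.16 (minimum count 10, R 4.3.3) were fitted in 1 quasi-likelihood model of group over all 12 libraries with TMM scaling (biological coefficient of variation 0.214, 8 residual degrees of freedom). Benjamini-Hochberg adjustment ran over all 18252 genes in each of 9 comparisons, and a gene passed at an adjusted p under 0.05. CPM uses TMM-corrected library sizes, and intervals are 95%.

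Named genes were all 10, up to 4 passing genes of each vessel list in a comparison or else up to 2 with the smallest p against vehicle, the 8 genes most like the mean of the 10, and Vegfa, Angpt1, Angpt2, Nrp1, Klf2, Klf4 and Cldn5. Alternatives were DESeq2 1.42.0, limma voom 3.58.1, RLE scaling, other filters, protein-coding genes only, a GC offset (spline with 5 degrees of freedom), the groups compared only, the replicate number as a block, and each library left out.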

Additional observations from a re-analysis of the deposited data

Results flagged for a closer look

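Klf2 drew attention because the effect of one drug on it differed with the other drug present, by a test of that difference: its interaction was 1.65 ± 0.24 on the log2 scale, with an adjusted p of 0.0286 by edgeR's quasi-likelihood test. It ranged from 1.49 to 1.82 over the 21 alternatives, and passed in 7 of the 12 fits that each left out 1 library. All drug groups were below vehicle, and no Klf2 difference between drug groups passed. Adding a drug to the other gave 0.28 ± 0.17 against MBQ-167 and 0.29 ± 0.17 against paclitaxel. The interaction of none of the 10 endothelial genes passed.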

How the results depend on the processing

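All 10 endothelial genes kept their side of the threshold, not passing, in each of the 1590 values from 22 alternative settings over the 9 comparisons, so that leaving out single libraries gave 0 passing in every case. Directions were less stable: 54 of the 90 differences changed sign in at least 1 alternative, all of them uncalled. Against vehicle their log2 fold changes ran from -0.52 to 0.45 for MBQ-167, -0.56 to 0.46 for paclitaxel and -0.53 to 0.71 for the combination over the alternatives. The smallest adjusted p was 0.153, for Vwf in the paclitaxel main effect without combination library 3. No scaling moved the median of all genes by more than 0.1.

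With the replicate number as a block, 0 of the 10 genes passed in each comparison. The block moved the count over all genes from 17 to 24 in MBQ-167 against vehicle, from 1033 to 1092 in paclitaxel against vehicle and from 336 to 300 in the combination against vehicle. Whether the numbers pair the libraries stayed undecided. In their deviations from group means, same-numbered libraries of different groups had correlations of -0.17 to 0.27, with 7 of 18 over 0.1. Differently numbered ones had -0.24 to 0.22, with 9 of 36 over 0.1. The deviations of the 3 libraries of a group sum to 0, which ties these correlations to each other, so they cannot settle the pairing.

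Counts over all genes depended more on the choices: they ran from 5 (only the groups compared) to 392 (no filter) for MBQ-167 against vehicle, from 230 (without paclitaxel library 2) to 1759 (DESeq2) for paclitaxel and from 7 (only the groups compared) to 941 (DESeq2) for the combination. The corresponding ranges were 2 to 197 for the interaction, 8 to 1284 for the paclitaxel main effect, 0 to 21 for the MBQ-167 main effect, 0 to 33 for paclitaxel against MBQ-167, 0 to 4 for the combination against MBQ-167 and 0 to 7 for the combination against paclitaxel. Depth limits Tek and Emcn most, which had as few as 35 and 70 counts in a library.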
